A study of Mus musculus with 12 samples.

Results

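The unfolded protein response and the integrated stress response are described here through 10 genes: Atf4, Ddit3, Xbp1, Ppp1r15a, Trib3, Hspa5, Dnajb9, Herpud1, Asns and Chac1. They were found as the non-control probes whose gene name in the scanner files is 1 of these symbols, which gave 12 probes, 1 for each gene and a second for Atf4 and Dnajb9. All 10 genes are among the 23931 genes and other features tested, and all 12 probes were well above background on all 12 arrays. The arrays measured RNA of RAW264.7, an established mouse macrophage cell line, in 4 groups of 3 arrays. The control group (ctrl) received a scrambled siRNA for 24 h and a further 4 h of culture without LPS, and its stimulated counterpart (ctrl+LPS) received the same siRNA and then 4 h of E. coli LPS at 1 µg/ml. The lincRNA-siRNA groups (linc and linc+LPS) received an siRNA against the long noncoding RNA lincRNA-Tnfaip3 on the same schedule, so every group was transfected and no untransfected cells were compared. No probe carried the name of that RNA, so the knockdown itself was not measured here. Nothing in the labels states that the 3 arrays of a group stem from separate cultures, so the p-values rest on a spread between arrays that may be technical.

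Proteins that fail to fold in the endoplasmic reticulum (ER) are sensed by IRE1, ATF6 and PERK. IRE1 splices the Xbp1 mRNA into a form that encodes an active transcription factor, ATF6 is cut to release another, and PERK phosphorylates the translation factor eIF2alpha. The kinases PKR, GCN2 and HRI phosphorylate the same residue in answer to double-stranded RNA, amino acid shortage and haem shortage, and this shared arm, the integrated stress response, lowers translation in general while favouring translation of Atf4. ATF4 then induces Ddit3 (CHOP), Trib3, Asns, Chac1 and Ppp1r15a, whose product GADD34 brings a phosphatase to eIF2alpha and ends the block. In macrophages, TLR4 signalling is known to engage parts of this system, IRE1 and XBP1 among them, without the full set of ER stress genes. Arrays of this kind measure mRNA and show neither the splicing of Xbp1 nor the phosphorylation of eIF2alpha.

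The promoters of 3 genes are shown because the members with the largest average changes with LPS were Ppp1r15a, Herpud1 and Hspa5. Those of Hspa5 and Herpud1 held a match to a motif of this response. That of Ppp1r15a held none of the motifs planned, only a more general element added to the search later. Each run is the 250 bases before the RefSeq start site in assembly GRCm38.p6, written 5′ to 3′ on the gene's own strand. It covers chr2:34771840-34772089 (plus strand) for Hspa5, chr8:94386179-94386428 (plus strand) for Herpud1 and chr7:45526269-45526518 (minus strand) for Ppp1r15a, and capitals mark the fixed letters of the motif found.
Hspa5: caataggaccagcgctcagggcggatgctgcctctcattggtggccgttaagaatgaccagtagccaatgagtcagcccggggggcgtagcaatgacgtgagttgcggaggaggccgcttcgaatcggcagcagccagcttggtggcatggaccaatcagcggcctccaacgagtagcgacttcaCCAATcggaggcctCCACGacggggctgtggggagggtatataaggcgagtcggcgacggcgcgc
Herpud1: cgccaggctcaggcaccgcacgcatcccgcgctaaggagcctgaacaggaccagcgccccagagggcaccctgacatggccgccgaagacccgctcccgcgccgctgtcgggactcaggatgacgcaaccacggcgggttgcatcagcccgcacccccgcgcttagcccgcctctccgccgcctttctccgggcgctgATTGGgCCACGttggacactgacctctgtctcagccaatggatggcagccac
Ppp1r15a: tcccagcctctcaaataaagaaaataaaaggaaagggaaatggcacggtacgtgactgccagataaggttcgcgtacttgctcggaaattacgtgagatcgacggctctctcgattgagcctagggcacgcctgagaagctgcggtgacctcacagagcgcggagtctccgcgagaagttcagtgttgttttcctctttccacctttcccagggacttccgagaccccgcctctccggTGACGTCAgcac
In Hspa5 the capitals are an ER stress element (ERSE, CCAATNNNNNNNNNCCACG) that starts 65 bases before the start site. In Herpud1 they are the second form of that element (ERSE-II, ATTGGNCCACG), 52 bases before it. In Ppp1r15a they are a cyclic AMP response element (CRE, TGACGTCA), to which factors of the CREB and ATF family bind, 12 bases before the start; the CRE was added to the search after the promoters had been seen. Both strands of the 300-base windows of all 10 genes were searched, and among the 32851 promoters of the RefSeq table ERSE was found in 0.119%, ERSE-II in 0.0365% and CRE in 1.79%. The core of the unfolded protein response element (TGACGTGG, in 0.676% of all promoters) and the C/EBP-ATF element (TGATGNAAT, in 0.965%) were in none of the 10 windows in exactly these letters. Asns on its own strand, and Chac1 and Herpud1 on the opposite strand, held a run that differs from this C/EBP-ATF form only in the last letter. The search fixed that letter as T, so such runs were not counted, and an absence of the element in a wider form was not tested. A CRE and the core element share their first letters but no match here overlapped another. Hspa5, Herpud1 and Ppp1r15a were the only ones of the 10 genes with a match to any motif searched. Dnajb9, whose average change with LPS (-0.35) was close in size to that of Hspa5 (0.35), held none. A link between motif and change was not tested. The matches describe the letters and say nothing about binding.

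Levels are given as log2 of the processed signal relative to the array's 75th percentile, so that a difference of 1 is a 2-fold difference, and levels of different probes are not comparable with each other. The 12 arrays lay on 3 slides, and the groups were spread unevenly over them: slide 1 held ctrl 1 and ctrl 2, slide 3 held linc+LPS 2 and 3, and slide 2 held the other 8 arrays. Each comparison was therefore also computed with the slide as a block, which here gives the same size as slide 2 alone, that is 1 ctrl against 3 ctrl+LPS arrays and 3 linc against 1 linc+LPS array. The 2 arrays of slide 1 had 27208 and 29470 probes well above background, against 32729 to 36415 on the others. LPS had acted in both siRNA backgrounds: the 6 response genes used as a check (Il6, Cxcl10, Ifit1, Il1b, Tnf and Nfkbia) all rose, Il6 by 6.85 with the control siRNA and by 6.02 with the lincRNA siRNA. Of 10 macrophage markers 9 were well above background on all 12 arrays, and of 11 markers of other cell types 5 were and 2 (Epcam and Gata1) were on none. The summed linear signal of those 11 markers, in units of the 75th percentile, was 44.7 to 129 in ctrl, 123 to 130 in ctrl+LPS, 126 to 140 in linc and 109 to 133 in linc+LPS. That of the 10 macrophage markers was 358 to 443 in ctrl, 447 to 510 in ctrl+LPS, 473 to 539 in linc and 540 to 613 in linc+LPS. In this sum, which the brightest genes weigh most, the lincRNA-siRNA arrays were above the control-siRNA arrays in both LPS states. The LPS arrays were above those without LPS under both siRNAs. Gene by gene, the 9 macrophage markers that could be tested had median log2 changes with LPS of 0.36 in control-siRNA and 0.21 in lincRNA-siRNA cells. With the slide as a block these were 0.12 and 0.26. Between the siRNAs the medians were 0.23 without LPS and 0.002 with LPS (-0.05 and 0.17 with the slide as a block). None of the 9 passed in these comparisons. In the average over both siRNAs 1 of the 9 rose with LPS, against 4.18% of all features called higher. The median change of the 9 in that average was 0.25, and 0.20 with the slide as a block. The 5 markers of other cell types that could be tested had median log2 changes of 0.67 with LPS in control-siRNA cells and 0.32 in lincRNA-siRNA cells (0.19 and 0.22 after blocking on slide), and of 0.84 without LPS and 0.37 with LPS between the siRNAs (0.36 and 0.09 with the slide as a block), and none of them passed. The part of either marker list in the results was not tested.

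LPS raised 2 of the 10 genes in control-siRNA cells, Ppp1r15a by 1.65-fold and Herpud1 by 1.48-fold, and lowered none (limma, adjusted p under 0.05). Over all features the same test called 5.09% in either direction and 3.21% as higher. In lincRNA-siRNA cells 1 of the 10 rose, Ppp1r15a by 1.49-fold, against 1.83% of all features called and 1.5% called higher. Averaged over both siRNAs, Ppp1r15a and Herpud1 rose and 8 genes did not pass, against 8.06% of all features called and 4.18% called higher. The median log2 change of the 10 genes in that average was 0.05 and that of all features 0.03. Where the arrays of groups are said below not to overlap, the share of all features without overlap was not counted. With 3 arrays a group, arrays can separate without any effect. At an unadjusted p under 0.05 (limma) there were 3 members and 24.0% of all features with LPS under the control siRNA. Under the lincRNA siRNA there were 1 member and 10.1% of all features. A change in the share of cells that express a gene and a change in its level per cell cannot be told apart in RNA of whole cultures. With the slide as a block none of these 5 calls passed (adjusted p from 0.0629 to 0.529), although the log2 changes stayed between 0.48 and 0.64.

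**Figure D1:**
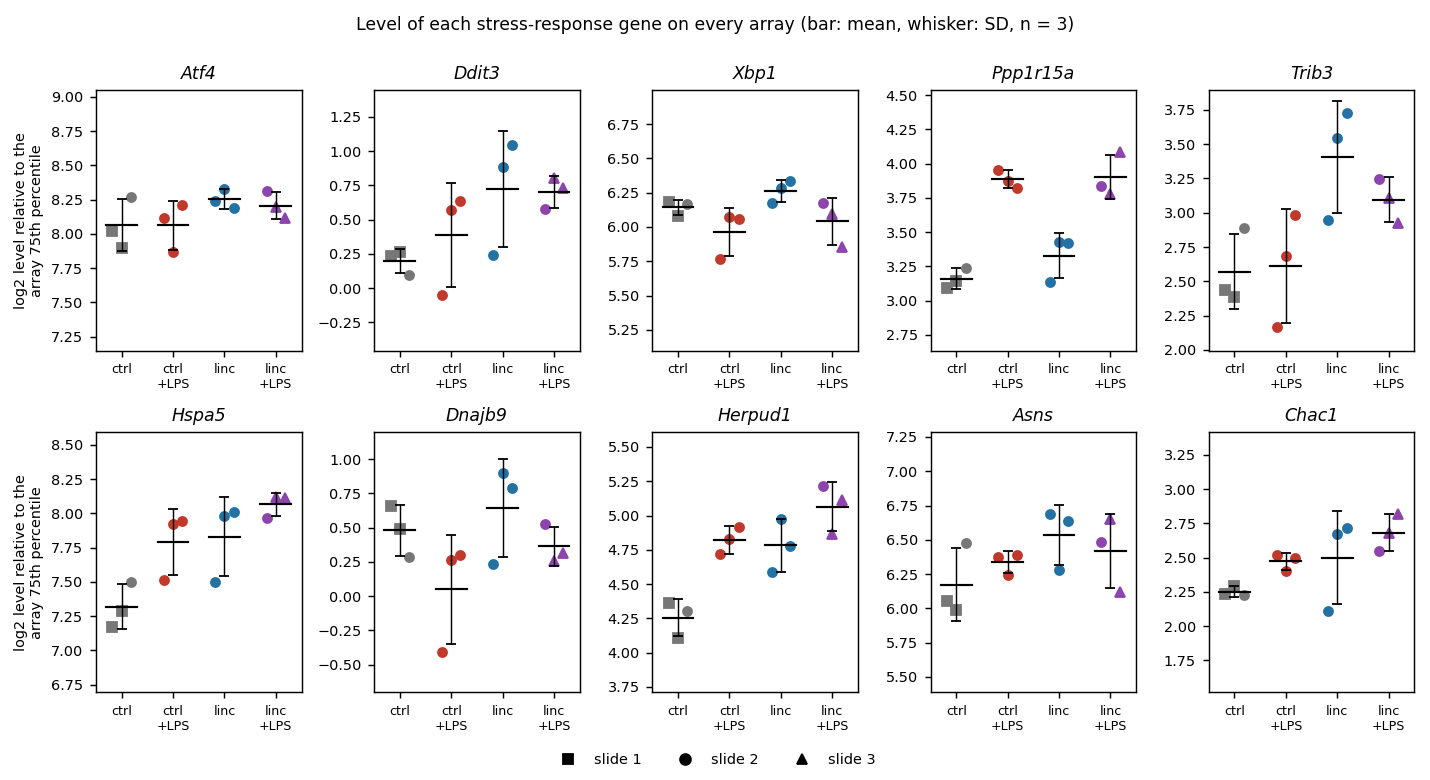
Level of the 10 genes on each of the 12 arrays (log2 signal relative to the array's 75th percentile) by group, with the mean and SD of 3 arrays; the vertical span is the same in every panel and the marker shape gives the slide. The 6 LPS arrays lie between 3.78 and 4.08 for Ppp1r15a and the 6 arrays without LPS between 3.09 and 3.43. Atf4, Asns and Dnajb9 overlap between all groups, and each of the other genes has some groups that overlap and some that do not. The share of all features without overlap was not counted.

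The clearest change was in Ppp1r15a, the feedback regulator that restores translation by dephosphorylating eIF2alpha. Its probe lies on mm9 chromosome 7 from 52778320 to 52778379 on the minus strand. In ctrl its level was 3.09, 3.15 and 3.24, and in ctrl+LPS 3.95, 3.88 and 3.82. In linc it was 3.14, 3.43 and 3.42, and in linc+LPS 3.84, 3.78 and 4.08. Every LPS array was above every array without LPS, whichever siRNA the cells had received. The log2 change with LPS was 0.73 (SE 0.12, limma adjusted p = 0.00686) with the control siRNA, 0.57 (SE 0.12, adjusted p = 0.0414) with the lincRNA siRNA and 0.65 (SE 0.083, adjusted p = 0.00105) on average. The first and the last of these passed without any single array (12 of 12 fits each), and the change with the lincRNA siRNA passed in 0 of 12 (0.48 to 0.63, adjusted p = 0.0534 to 0.137). With the slide as a block the changes were 0.64, 0.51 and 0.58 (adjusted p = 0.226, 0.529 and 0.0629). The difference between the 2 responses was -0.15 (95% CI -0.53 to 0.22, adjusted p = 0.898), so no difference between siRNAs was detected and one of up to 0.53 lay within the interval. The order of the group means was 3.16 ± 0.076 (SD, n = 3) in ctrl, 3.33 ± 0.16 in linc, 3.88 ± 0.066 in ctrl+LPS and 3.90 ± 0.16 in linc+LPS, and within the first pair and within the last pair the arrays overlapped.

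Trib3, the other feedback regulator, encodes a pseudokinase that ATF4 and CHOP induce and that restrains them in turn. It was 2.44, 2.39 and 2.89 in ctrl, 2.16, 2.69 and 2.99 in ctrl+LPS, 2.94, 3.54 and 3.72 in linc and 3.25, 3.11 and 2.92 in linc+LPS. The ctrl and ctrl+LPS arrays overlapped through their whole range, and the change with LPS was 0.04 (SE 0.26, adjusted p = 0.939) with the control siRNA and -0.31 (SE 0.26, adjusted p = 0.801) with the lincRNA siRNA. Without LPS the lowest linc array (2.94) was above the highest ctrl array (2.89), and with LPS the lincRNA-siRNA and control-siRNA arrays overlapped (lowest linc+LPS 2.92, highest ctrl+LPS 2.99).

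Of the 3 ER genes, Herpud1 passed. It encodes a membrane protein of the complex that sends misfolded ER proteins to the proteasome. Its probe lies on mm9 chromosome 8 from 96919117 to 96919176 on the plus strand. It was 4.36, 4.10 and 4.30 in ctrl and 4.72, 4.83 and 4.92 in ctrl+LPS, with no overlap. It was 4.59, 4.98 and 4.78 in linc and 5.21, 4.87 and 5.11 in linc+LPS, where 1 LPS array lay below the highest array without LPS. The change was 0.57 (SE 0.14, adjusted p = 0.0436) with the control siRNA, 0.28 (SE 0.14, adjusted p = 0.545) with the lincRNA siRNA and 0.42 (SE 0.096, adjusted p = 0.0252) on average. The first passed in 4 of 12 fits that each left out 1 array (0.49 to 0.62), those without ctrl 3, linc 1, linc 2 or linc+LPS 2, and its adjusted p was 0.0519 to 0.172 in the other fits. The average passed in 6 of 12, and it was lost without ctrl 2, ctrl+LPS 2 or 3, linc 1, or linc+LPS 1 or 3 (adjusted p = 0.0527 to 0.0719). With the slide as a block the changes were 0.52, 0.43 and 0.48 (adjusted p of the first and the last 0.487 and 0.181). The 2 responses differed by -0.28 (95% CI -0.71 to 0.15, adjusted p = 0.896).

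Hspa5 encodes BiP, the main Hsp70 chaperone of the ER, and its promoter is the textbook reporter of the unfolded protein response. It was 7.17, 7.29 and 7.50 in ctrl, 7.52, 7.92 and 7.94 in ctrl+LPS, 7.50, 7.98 and 8.01 in linc and 7.97, 8.12 and 8.11 in linc+LPS. All ctrl arrays lay below all ctrl+LPS arrays, but the nearest of them, 7.50 on slide 2, was close to the lowest ctrl+LPS array at 7.52. The change with LPS was 0.47 (95% CI 0.09 to 0.85, adjusted p = 0.143) with the control siRNA and 0.35 (95% CI 0.08 to 0.62, adjusted p = 0.109) on average, and neither passed. On slide 2 alone the average was 0.22. Dnajb9 (ERdj4), a co-chaperone of BiP and a target of spliced XBP1, was 0.66, 0.49 and 0.29 in ctrl and -0.41, 0.26 and 0.30 in ctrl+LPS. In linc it was 0.23, 0.90 and 0.79 and in linc+LPS 0.53, 0.26 and 0.31. The average change with LPS was -0.35 (95% CI -0.71 to 0.01, adjusted p = 0.217), and its second probe gave 0.01 (SE 0.12), so the 2 probes of this gene did not give the same change.

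The 3 transcription factors did not pass in any comparison. Xbp1, which carries the message of IRE1, was 6.18, 6.08 and 6.17 in ctrl and 5.76, 6.07 and 6.05 in ctrl+LPS, so that every LPS array was lower, with the nearest arrays at 6.08 and 6.07. In linc it was 6.18, 6.28 and 6.33 and in linc+LPS 6.17, 6.10 and 5.85, again with every LPS array lower and the nearest at 6.18 and 6.17. The average change was -0.20 (95% CI -0.39 to -0.01, adjusted p = 0.186), and -0.15 with the slide as a block. Ddit3, which encodes the pro-apoptotic factor CHOP, was 0.24, 0.26 and 0.10 in ctrl, -0.05, 0.57 and 0.64 in ctrl+LPS, 0.24, 0.88 and 1.04 in linc and 0.58, 0.81 and 0.73 in linc+LPS. The spread within ctrl+LPS (SD 0.38) and linc (SD 0.42) exceeded the average change with LPS of 0.08 (95% CI -0.28 to 0.45, adjusted p = 0.777). Atf4, the central factor of the integrated stress response, ranged from 7.87 to 8.33 over the 12 arrays, and its average change with LPS was -0.02 (95% CI -0.23 to 0.18, adjusted p = 0.896). Its second probe gave 0.09 (SE 0.092).

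The 2 metabolic targets of ATF4 did not pass either. Asns, which makes asparagine, was 6.06, 5.99 and 6.48 in ctrl, 6.38, 6.24 and 6.39 in ctrl+LPS, 6.69, 6.28 and 6.64 in linc and 6.48, 6.66 and 6.12 in linc+LPS. All 4 groups overlapped, and the average change with LPS was 0.02 (95% CI -0.26 to 0.31, adjusted p = 0.932). Chac1, which breaks down glutathione, was 2.24, 2.30 and 2.23 in ctrl and 2.52, 2.40 and 2.50 in ctrl+LPS, with no overlap, and 2.11, 2.67 and 2.72 in linc and 2.55, 2.68 and 2.82 in linc+LPS. Its average change was 0.20 (95% CI -0.04 to 0.45, adjusted p = 0.289).

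**Figure D2:**
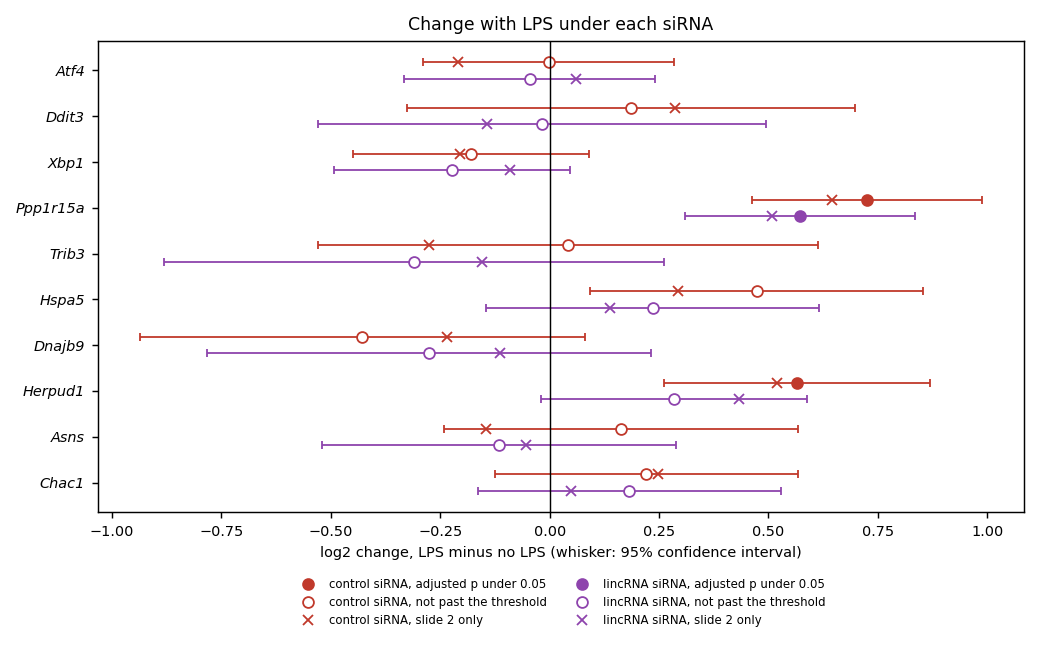
Log2 change with LPS of each gene in cells with the control siRNA and with the lincRNA siRNA (circles, filled where the adjusted p is under 0.05; whiskers are 95% confidence intervals; crosses are the values of slide 2 alone). Ppp1r15a lies at 0.73 and 0.57 and Herpud1 at 0.57 and 0.28, and the crosses of these genes stay between 0.43 and 0.64.

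The wider pathway was followed through 8 lists with 103 genes that are not among the 10, of which 99 passed the filter on low signal. Averaged over both siRNAs, 5 of the 99 rose with LPS (5.05%, against 4.18% of all features) and 7 fell (against 929 of all 23931 features). Their median change was -0.01. The 12 calls are 12.1% of the 99, against 8.06% of all features called. None of the 7 that fell passed with the slide as a block. With the control siRNA 4 rose and 1 fell (5.05%, against 5.09% of all features). With the lincRNA siRNA 4 rose and 0 fell (4.04%, against 1.83% of all features). These shares were not tested against each other. The same 4 genes rose in both backgrounds, Atf3, Nupr1, Eif2ak2 and Bcl2l11, and in the average all 4 also passed with the slide as a block. In lincRNA-siRNA cells alone, Eif2ak2 did not pass with the slide as a block.

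Among 5 other stress transcription factors, 2 rose. Atf3, an immediate-early repressor that is induced through ATF4 and also directly by TLR signalling, rose by 1.80 on average (SE 0.093, adjusted p = 3.73e-06; 1.80 with the slide as a block). Nupr1, a small chromatin protein induced by many stresses, rose by 1.26 (SE 0.067, adjusted p = 4.44e-06). Of 13 genes for eIF2alpha kinases, their regulators and eIF2B, 1 rose and 3 fell. The one that rose was Eif2ak2, by 1.49 (SE 0.16, adjusted p = 0.000301); it encodes PKR, the kinase that senses double-stranded RNA and is itself an interferon-stimulated gene. Eif2ak3, which encodes PERK, fell by 0.43 (adjusted p = 0.0214), Eif2ak4, which encodes GCN2, by 0.37 (adjusted p = 0.0333) and Impact, an inhibitor of GCN2 activation, by 0.45 (adjusted p = 0.00553). A second probe of Impact gave -0.21 (adjusted p = 0.478), and after blocking on slide none of these 3 passed.

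Of 20 chaperones and folding enzymes 0 passed in the average (median 0.04), where 8.06% of all features were called, and Hsp90b1, the ER form of Hsp90, gave 0.25 (adjusted p = 0.348) and Creld2 0.26 (adjusted p = 0.381). None of 10 translocation genes passed (median 0.04). Of 13 genes of ER-associated degradation 1 fell, Edem1, a lectin that marks misfolded glycoproteins, by 0.56 (adjusted p = 0.0369; -0.41 with the slide as a block, not passing). Of 5 genes for the sensors and the proteases that cut them 1 fell, Atf6, by 0.59 (adjusted p = 0.0370; -0.50 with the slide as a block, not passing), while Ern1, which encodes IRE1, gave 0.02 (adjusted p = 0.931). Of 23 ATF4 targets in amino acid supply and tRNA charging 1 rose and 1 fell. Slc7a11, the cystine transporter, rose by 0.72 (adjusted p = 0.0139) and Slc6a9, a glycine transporter, fell by 0.41 (adjusted p = 0.00694), and a block for the slide left neither past the threshold. Of 10 other stress targets 1 rose, Bcl2l11, which encodes the pro-apoptotic protein BIM, by 1.39 (adjusted p = 9.98e-06), and 1 fell, Ddit4, an inhibitor of mTORC1, by 0.82 (adjusted p = 0.0328; not passing with the slide as a block).

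**Figure D3:**
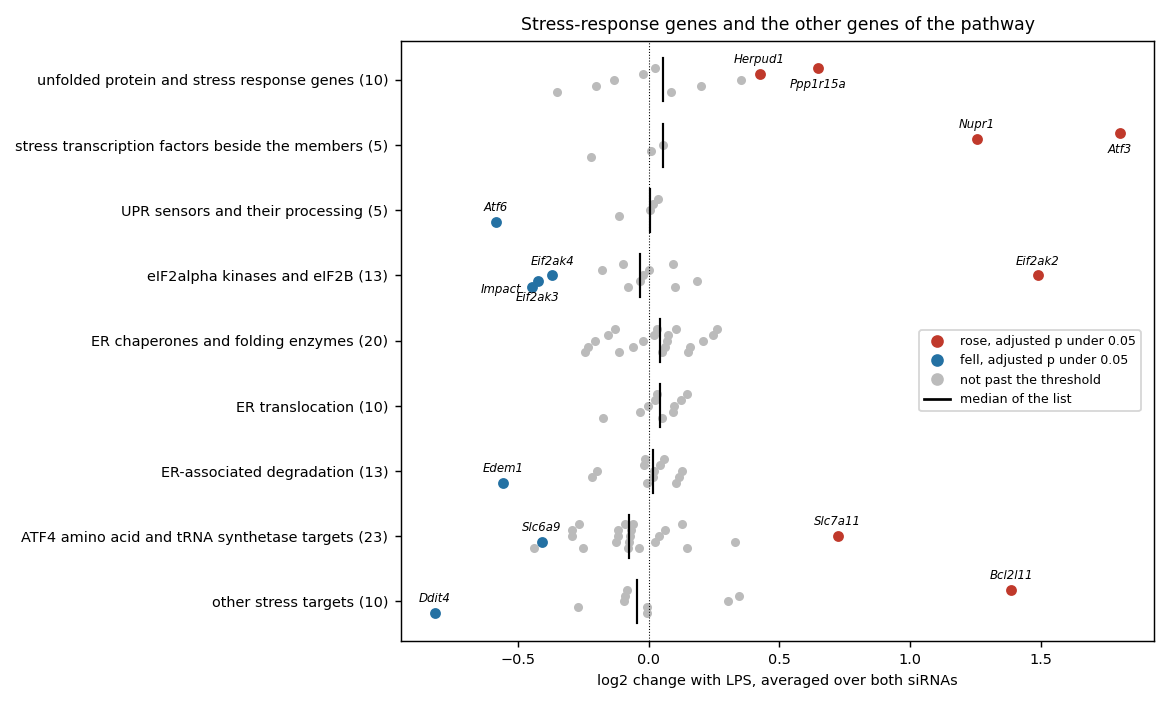
Log2 change with LPS averaged over both siRNAs for the 10 genes and for the other genes of 8 pathway lists, 1 point per gene, coloured where the adjusted p is under 0.05, with the median of each list as a bar and the number of genes in brackets. The list medians lie between -0.08 and 0.05, and Atf3 (1.80), Eif2ak2 (1.49), Bcl2l11 (1.39) and Nupr1 (1.26) lie farthest to the right.

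No member passed the test between the siRNAs. Without LPS 0 of 10 passed (0% of all features were called; at an unadjusted p under 0.05 there were 4 members and 18.3% of all features). With LPS 0 of 10 passed (0% of all features; 0 members and 4.69% of all features at an unadjusted p under 0.05). Averaged over the LPS states 0 of 10 passed, against 0.0961% of all features. All 10 estimates lay above 0 in both LPS states, as did 38.3% of all features, but 7 did so after quantile normalization or in the authors' value table, and after another background correction (normexp) or with the slide as a block 8. They ranged from 0.12 to 0.83 without LPS and from 0.02 to 0.48 with LPS. The summed macrophage markers were higher with the lincRNA siRNA in both states as well, as given above. Gene by gene, their median log2 difference was 0.23 without LPS and 0.002 with LPS (-0.05 and 0.17 with the slide as a block). The part of these markers in the differences of the members was not tested.

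Trib3 had the largest of these differences, 0.83 without LPS (95% CI 0.26 to 1.41, adjusted p = 0.215) and 0.48 with LPS (95% CI -0.09 to 1.05, adjusted p = 0.976), and 0.66 on average (adjusted p = 0.175). On slide 2 alone the first 2 were 0.52 and 0.64. The average passed in 1 fit, without the ctrl array of slide 2 (0.74, adjusted p = 0.0494). Without LPS, Herpud1 differed by 0.53 (95% CI 0.22 to 0.83, adjusted p = 0.205), Ddit3 by 0.52 (95% CI 0.01 to 1.03, adjusted p = 0.269) and Hspa5 by 0.51 (95% CI 0.13 to 0.89, adjusted p = 0.225). For Herpud1 and Hspa5 all linc arrays were at or above the highest ctrl array, while for Ddit3 the lowest linc array (0.24) lay within the ctrl range. With LPS the same 3 differed by 0.24, 0.32 and 0.27, and none passed. For Atf4 and Dnajb9 the second probes gave 0.29 (SE 0.092, adjusted p = 0.208) and 0.45 (SE 0.12, adjusted p = 0.170) on average, and the main probes 0.17 and 0.24. Of the 3 ctrl arrays 2 were on slide 1, with fewer probes above background, and on slide 2 alone, with 1 ctrl array against 3 linc arrays, the differences were 0.48 for Herpud1, 0.62 for Ddit3 and 0.33 for Hspa5.

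**Figure D4:**
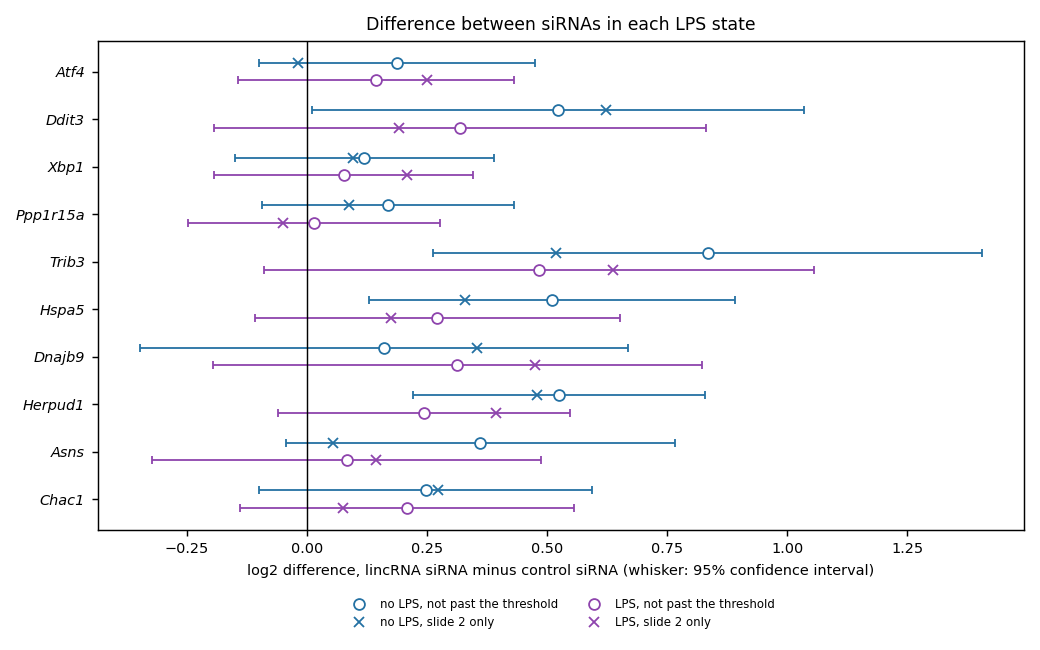
Log2 difference between the lincRNA siRNA and the control siRNA for each gene without and with LPS (open circles, none past the threshold; whiskers are 95% confidence intervals; crosses are the values of slide 2 alone). All circles lie to the right of 0, from 0.02 to 0.83 (7 of 10 genes do so in both states after quantile normalization), and the crosses of Atf4 without LPS (-0.02) and of Ppp1r15a with LPS (-0.05) lie to the left.

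The difference between the LPS responses of the siRNAs, the interaction, passed in 0 of 10 genes and in 0% of all features (limma; 0 members and 885 features at an unadjusted p under 0.05). Its estimate ranged from -0.35 for Trib3 (95% CI -1.16 to 0.46) to 0.15 for Dnajb9 (95% CI -0.57 to 0.87), so differences within these intervals were not excluded.

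Within a group some of the genes departed from the group mean together. The array linc 1 was the lowest of its group for 8 of the 10 genes (36.4% of all features), Ddit3, Trib3 and Hspa5 among them, and ctrl+LPS 1 for 6 of the 10 (33.4% of all features). The array ctrl+LPS 3 was the highest of its group for 7 (35.5% of all features). Over the 12 arrays, the departures from the group mean of Trib3 and Hspa5 correlated with r = 0.87, those of Ddit3 and Hspa5 with r = 0.85 and those of Ddit3 and Dnajb9 with r = 0.85. For Hspa5, 1.14% of all features correlated with it at least as strongly as Trib3 did, and 1.49% at least as strongly as Ddit3. The median r over the 45 pairs was 0.40, with 34 pairs above 0, and the lowest was -0.42 for Dnajb9 and Asns. At that median lay Ddit3 and Herpud1, and 20.4% of all features correlated at least as strongly with Ddit3 and 18.8% with Herpud1. For the pair nearest to 0, Atf4 and Ppp1r15a (r = 0.003), it was 64.8% with Atf4 and 58.1% with Ppp1r15a. An r above 0 was therefore common among all features for Atf4 and Ppp1r15a. It was less so for Dnajb9, with which 34.0% of all features had an r of at least 0.11 and 52.2% of at least -0.11. These correlations describe arrays that share slides and processing, and no test was made of them.

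**Figure D5:**
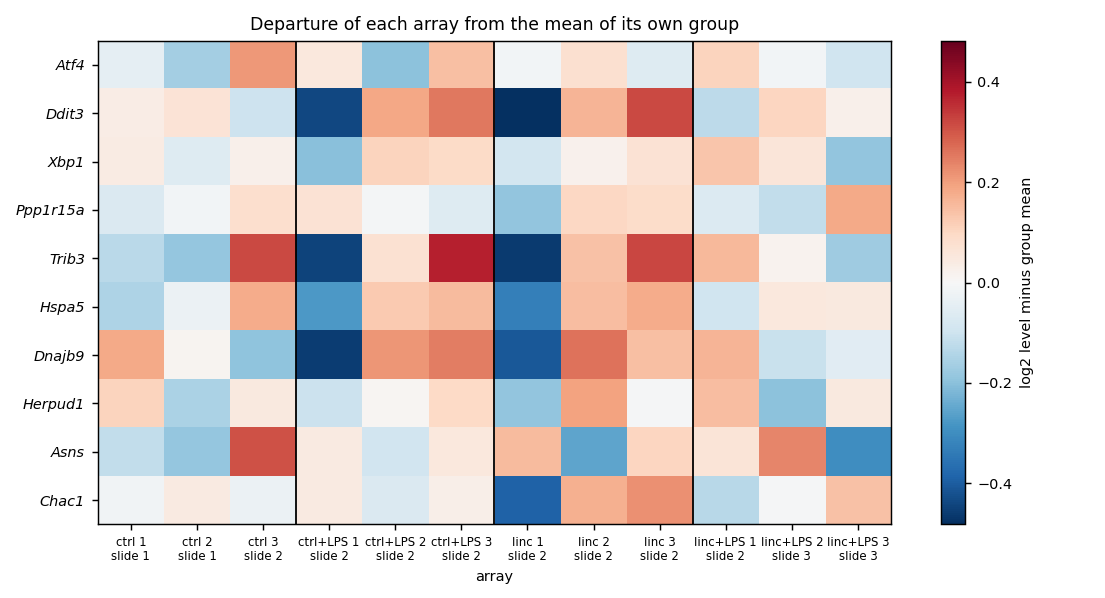
Departure of the level of each gene on each array from the mean of its own group (log2, colour scale), with arrays in the order of the groups and their slide. The columns of linc 1 and ctrl+LPS 1 are mostly blue, which is below the group mean, for Ddit3, Trib3, Hspa5 and Dnajb9.

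The features most like the 3 genes with the largest average changes were named by their Pearson correlation over the 12 arrays, as a description. For Ppp1r15a they were Plaur (r = 0.98), Hsh2d (0.97) and Cd52 (0.97), for Herpud1 Dnajb5 (0.98), Dusp16 (0.97) and A330009N23Rik (0.97), and for Hspa5 Trip10 (0.99), Tnfrsf10b (0.99) and Ttc37 (0.98). The average log2 changes with LPS of the 3 most like Ppp1r15a were 1.59, 2.70 and 0.51. Tnfrsf10b, the gene of a death receptor that is also on the list of other stress targets, gave 0.34 with LPS (adjusted p = 0.108), against 0.35 for Hspa5.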

How the data were processed

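RNA of 12 RAW264.7 samples was measured on 1-colour arrays. Per the file headers, the deposited spot intensity comes from Agilent Feature Extraction 10.7.1.1, background-subtracted and detrended within each array, with probe positions on mm9, and that tool is also named in the submitters' processing notes. The authors also deposited a value table whose columns tracked the log2 intensity of their arrays (rank correlation at least 0.999962); how it was normalized is stated in none of the sources used, and it served as an alternative.

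From the intensities, log2 values relative to each array's 75th percentile (signal 314 to 481) were taken, outlier-flagged spots (104 to 258 an array; no spot was saturated) were left out, and spots of a probe were averaged. Probes were kept where any group had all 3 of its arrays well above background (33177 of 55681 probes, 59.6%), and the probe with the highest mean stood for its gene. One limma 3.58.1 model (R 4.3.3) with 8 residual degrees of freedom covered all 12 arrays; p-values were Benjamini-Hochberg adjusted over 23931 features at a threshold of 0.05. The script was tested on simulated data. Accessions of 26582 probes matched RefSeq names. In the named-gene rule, every member and all its probes were reported, with up to 4 passing genes per list and contrast plus Atf3. The members and lists were chosen with earlier results of these data known. The alternatives were other normalizations, filters, probe rules and blocks, and leaving out each array.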

Additional observations from a re-analysis of the deposited data

How the results depend on the processing

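Of 1650 refits of single members, 1597 kept their side of the threshold, 50 lost a call and 3 gained one. The sign differed from the reported one in 79 refits of 20 results, none of which was a call; among them were Atf4 and Asns in the LPS average, Trib3 with LPS under the control siRNA and Ppp1r15a between siRNAs with LPS. The 3 gains were Hspa5 with LPS under the replicate block (0.47 with the control siRNA, adjusted p = 0.0443, and 0.35 on average, adjusted p = 0.0281) and Trib3 between siRNAs without ctrl 3. With 3 arrays a group the precision is limited by their number, and no probe of the 10 genes was near background.

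The following counts are of members that passed with LPS. With the control siRNA it was 2 in the analysis as reported, 1 under normexp, with no filter, with the slide as a random block or with only the groups compared, 0 with the slide as a block, on slide 2 alone or without both control arrays of slide 1 (an alternative added after the data were seen), and 1 to 2 without single arrays. With the lincRNA siRNA it was 1 as reported and 0 with no filter, with the slide as a block or random block, on slide 2 alone, under the replicate block, with only the groups compared, without both arrays of slide 1 and without any single array. Averaged over siRNAs it was 2 as reported, 1 with no filter or without both arrays of slide 1, 0 with the slide as a block or on slide 2 alone, and 1 to 2 without single arrays. Under the replicate block it was 3 in that average, with Hspa5 gained. With the control siRNA the replicate block gave 2, with Hspa5 gained and Herpud1 lost. Between siRNAs it was 0 as reported and 0 to 1 in the average without single arrays. The cause was not tested, except that the last alternatives hold fewer arrays.

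Over all features, LPS with the control siRNA gave 1217 calls as reported, 719 with no filter, 229 with the slide as a block, 51 on slide 2 alone, 625 with only the groups compared, 205 without both arrays of slide 1 and 514 (without ctrl+LPS 3) to 3933 (without ctrl 3) without single arrays. LPS with the lincRNA siRNA gave 437 as reported, then 158 with the slide as a block, 47 on slide 2, 148 with only the groups compared and 245 to 472 without single arrays. The LPS average gave 1930, then 1236 with no filter, 535 with the slide as a block, 273 on slide 2, 708 without both arrays of slide 1 and 1190 to 3605 without single arrays. The siRNA without LPS gave 0, then 5 under normexp, 2 with the mean of probes, 1 with the slide as a block, 4 without both arrays of slide 1 and 0 to 2545 (without ctrl 3) without single arrays. With LPS it gave 0, then 2 with the slide as a block. Its average gave 23, then 38 in the authors' table, 0 with no filter, 90 with a stricter filter, 37 with the mean of probes, 0 with the slide as a block or on slide 2, 1 without both arrays of slide 1 and 0 to 1640 without single arrays. The interaction gave 0, and 0 to 348 without single arrays.

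No clear pairing of the arrays by replicate number was seen, and none was tested. Departures from group means of arrays with the same number correlated with r = -0.30 to 0.47, above 0.1 in 8 of 18 pairs. Those with different numbers gave r = -0.47 to 0.47, above 0.1 in 14 of 36 pairs. Over all features, the replicate block gave 1525 calls for LPS with the control siRNA, 371 with the lincRNA siRNA and 2232 on average. As reported these were 1217, 437 and 1930. With the replicate block, Ppp1r15a gave adjusted p = 0.0129, 0.0644 and 0.00299 with the control siRNA, the lincRNA siRNA and on average, and Herpud1 0.0627 with the control siRNA and 0.0429 on average.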
